A study of Mus musculus with 11 samples.

Results

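The genes described here are Hoxd1, Hoxd3, Hoxd4 and Hoxd8, the members of the HoxD cluster on its 3′ side that mice have. They were taken by name from the count table, which has 47517 gene rows. All 4 were present and all 4 passed the filter on low counts, which 15821 rows passed. The samples were RNA-seq libraries of forelimb buds from mouse embryos at E10.5 on a C57BL/6 background, sequenced after depletion of ribosomal RNA. The 6 mutant libraries came from embryos with both Gmnn alleles floxed and the Prx-Cre transgene (Gmnn f/f; Prx-Cre). The 5 control libraries came from embryos with 1 floxed and 1 wild-type allele and the same transgene (Gmnn +/f; Prx-Cre), so that the controls also carried Cre and a floxed allele. Gmnn encodes Geminin, an inhibitor of DNA replication licensing that also binds chromatin regulators. Prx-Cre acts in limb bud mesenchyme, so the ectoderm, blood and vessel cells of the bud are expected to keep their floxed alleles. The titles give the litter of each embryo. Controls 1 and 2 shared litter A with mutants 1 and 2. Control 3 shared litter B with mutant 6, control 4 shared litter C with mutant 5, and control 5 shared litter D with mutants 3 and 4.

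Hox genes encode homeodomain transcription factors that give cells their position along body and limb axes. In the early limb bud the HoxD genes are switched on in the order in which they lie, from Hoxd1 at the 3′ end towards Hoxd13 at the 5′ end. Enhancers in the gene desert beyond Hoxd1, on the side of the neighbouring gene Mtx2, drive the 3′ and central genes, and the 5′ genes are later taken over by enhancers on the other side of the cluster. Retinoic acid activates 3′ Hox genes in many embryonic tissues, and Meis and Cdx proteins are known partners or regulators of Hox genes.

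The 4 genes lie on the + strand of mouse chromosome 2 in the order Hoxd8, Hoxd4, Hoxd3, Hoxd1. The 250 bases before each gene's RefSeq start (build GRCm38.p6) are printed below, and a link of their composition with level was not tested. They are chr2:74704365-74704614 for Hoxd8, chr2:74721728-74721977 for Hoxd4, chr2:74711743-74711992 for Hoxd3 and chr2:74762730-74762979 for Hoxd1, all on the + strand. In the annotation used for counting, Hoxd4 begins earlier, at 74711929. Its window therefore lies inside the counted gene, just before exon 2 at 74721978. The Hoxd3 window runs into exon 1 of the counted Hoxd3, which begins at 74711927. Capitals mark matches on either strand to 5 short motifs, which are a TATA box, a CCAAT box, a nuclear receptor site, a Meis site and a Cdx site.
Hoxd8: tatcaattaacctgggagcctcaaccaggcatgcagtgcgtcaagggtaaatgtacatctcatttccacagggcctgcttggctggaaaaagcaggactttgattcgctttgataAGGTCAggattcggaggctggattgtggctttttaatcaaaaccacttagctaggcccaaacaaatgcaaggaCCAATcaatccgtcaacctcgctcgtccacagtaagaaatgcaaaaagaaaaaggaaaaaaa
Hoxd4: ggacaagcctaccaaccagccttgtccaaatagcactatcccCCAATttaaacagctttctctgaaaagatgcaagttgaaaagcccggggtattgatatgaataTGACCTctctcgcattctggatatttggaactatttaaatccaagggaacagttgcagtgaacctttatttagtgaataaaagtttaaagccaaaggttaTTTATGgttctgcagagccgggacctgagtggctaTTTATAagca
Hoxd3: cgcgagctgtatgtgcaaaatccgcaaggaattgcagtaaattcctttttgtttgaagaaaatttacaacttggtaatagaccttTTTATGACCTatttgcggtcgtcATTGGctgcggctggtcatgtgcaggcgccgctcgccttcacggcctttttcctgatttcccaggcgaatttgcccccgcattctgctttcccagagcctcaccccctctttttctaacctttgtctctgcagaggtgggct
Hoxd1: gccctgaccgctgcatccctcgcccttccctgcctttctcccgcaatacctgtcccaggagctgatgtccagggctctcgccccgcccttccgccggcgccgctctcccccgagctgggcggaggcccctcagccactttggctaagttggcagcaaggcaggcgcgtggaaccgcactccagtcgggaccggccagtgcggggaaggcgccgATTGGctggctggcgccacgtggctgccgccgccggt

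The Hoxd1 window was 71.6% G and C and held 24 CpG dinucleotides, more than all but 10.7% of the 32851 RefSeq windows of that length. The Hoxd4 window was at the other end, with 40.4% G and C and 3 CpG, and 29% of windows held fewer. Hoxd3 had 49.2% and 12 CpG, Hoxd8 44.4% and 6 CpG, beside a median of 52.4% and 6 CpG over all windows. The CCAAT box, searched as those 5 letters, was found in all 4 windows and in 33.8% of all windows. The nuclear receptor site, searched as AGGTCA, was found in Hoxd3, Hoxd4 and Hoxd8 and in 14% of all windows. The Cdx site, searched as TTTATG, was found in Hoxd3 and Hoxd4 and in 10.8% of all windows. In Hoxd3 the Cdx and receptor-site matches overlap. Hoxd4 alone of the 4 held the TATA box, searched as TATAAA, 10 bases before its RefSeq start on the reverse strand, and 12.4% of all windows held a match. None of the 4 windows held the Meis site, searched as TGACAG, which 15.9% of all windows hold. These matches are letters in a window and were not tested for binding.

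The counts do not cover the same part of each gene. The authors' tool, as run, left out reads that lie over exons of 2 genes. Hoxd8 (ENSMUSG00000027102.4, chr2:74704615-74707933, mm10, 3 exons) and Hoxd1 (ENSMUSG00000042448.5, chr2:74762980-74765142, 2 exons) shared no exon base with another row of the table, so that all their 2744 and 1862 exon bases could collect reads. Hoxd4 (ENSMUSG00000101174.8, chr2:74711929-74729160, 7 exons) had 1406 unshared bases of 2948, or 47.7%. Hoxd3 (ENSMUSG00000079277.9, chr2:74711927-74748442, 6 exons) had 1557 of 4191, or 37.2%. Most of the sharing was with Gm28230, a row for a read-through transcript that joins the coding exons of both genes: it covered 1154 exon bases of Hoxd4 and 2225 of Hoxd3. The antisense transcript Hoxd3os1 shared 347 bases with each, and Hoxd3 and Hoxd4 shared 388 with each other at their common first exon. In the GENCODE M21 models, 653 of the 750 coding bases of Hoxd4 and 1299 of the 1363 of Hoxd3 fell in shared stretches. The counts of Hoxd4 and Hoxd3 are therefore mostly reads from noncoding parts of their exons, and Gm28230 itself was left with 36 reads over the 11 libraries.

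**Figure D1:**
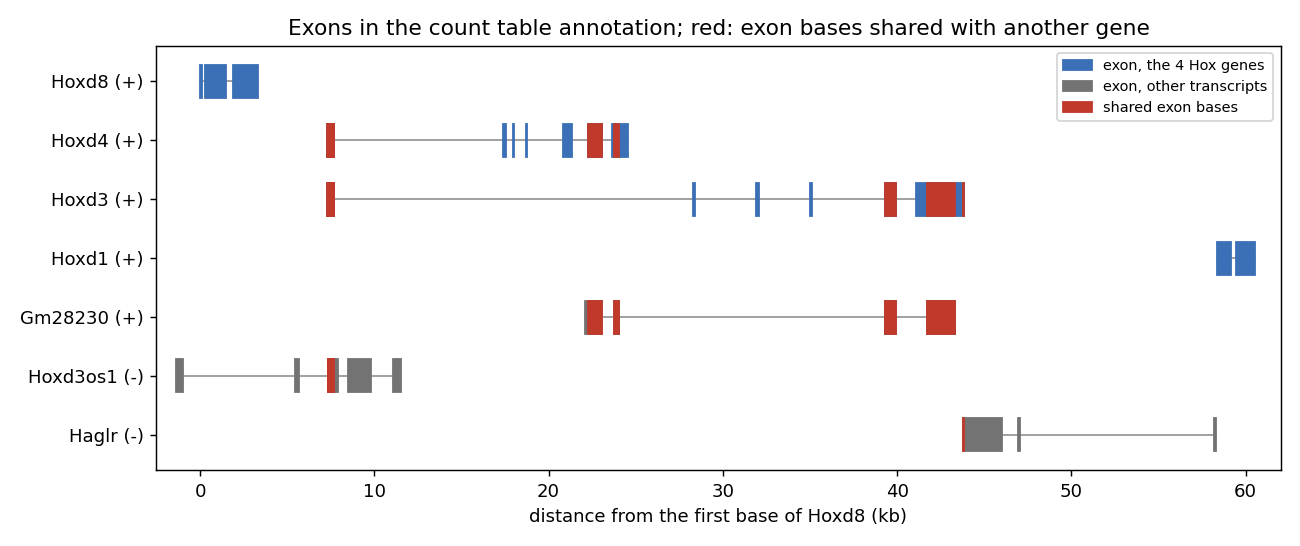
Exons of Hoxd8, Hoxd4, Hoxd3, Hoxd1 and of 3 transcripts that overlap or neighbour them, in kb from the first base of Hoxd8, from the count table; blue and grey boxes are exons and red marks exon bases that 2 of the transcripts shown share. Hoxd8 and Hoxd1 have no red, and Hoxd4 and Hoxd3 are blue over only 1406 and 1557 of their exon bases.

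Total counts were 14721181 to 19733288 per library. Gmnn, the targeted gene, was lower in the mutants (99.5 to 138 CPM, read counts scaled to the library's total) than in the controls (139 to 239 CPM), which is -0.67 on the log2 scale (SE 0.10, edgeR adjusted p = 0.0291). With each library left out in turn, its estimate was -0.75 to -0.57 and passed in 3 of 11 runs. All 8 limb bud mesenchyme markers were detected in every library, with a summed level of 710 to 937 CPM in controls and 710 to 833 CPM in mutants. The labels do not say that embryos of 1 litter were processed on 1 day, and p-values measure the spread between these embryos. One library stood apart in the HoxD cluster. Control 5 had the highest level of all 4 genes among the controls and the lowest level of Hoxd11, Hoxd12 and Hoxd13 of any library, at 3.36, 0.35 and 3.15 CPM. It also had the highest Meox1, a somite gene, at 51.9 CPM beside a median of 21.3 CPM over the libraries. The part of these differences in the results was not tested, and log2 fold changes of HoxD genes and Haglr that control 5 moves by over 1.5 times are given with and without it.

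Hoxd8 was the abundant member, with 13668 reads in all. Control libraries 1 to 5 had 79.6, 83.5, 56.5, 81.4 and 98.7 CPM, a mean of 79.9 ± 15.1 (SD, n = 5). Mutant libraries 1 to 6 had 55.99, 43.1, 83.1, 93.8, 90.1 and 62.9 CPM, a mean of 71.5 ± 20.5 (SD, n = 6). The lowest values were both mutants of litter A and both embryos of litter B, and the groups overlapped over most of their range. In bulk tissue, fewer expressing cells and less RNA per cell cannot be told apart. Hoxd8 held 17.1% to 30.8% of all reads of the 9 HoxD genes. Its coefficient of variation among controls was 18.9%, where counting error alone would give 2.69%.

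Hoxd4 had 517 reads in all. In control libraries 1 to 5 it stood at 1.90, 2.21, 1.15, 2.15 and 3.29 CPM, from 34, 43, 21, 37 and 47 reads. In mutant libraries 1 to 6 it stood at 2.89, 4.63, 3.43, 3.75, 3.55 and 3.01 CPM, from 50, 70, 51, 63, 52 and 49 reads. Controls 1 to 4 all lay below every mutant, and control 5 lay within the mutant range. The control mean was 2.14 ± 0.772 CPM (SD, n = 5) and the mutant mean 3.54 ± 0.625 CPM (SD, n = 6), with 1.85 ± 0.490 CPM (SD, n = 4) in controls without control 5.

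Hoxd3 was counted from few reads, 130 in all. Controls 1 to 5 had 11, 14, 4, 17 and 28 reads, or 0.615, 0.721, 0.218, 0.988 and 1.96 CPM. Mutants 1 to 6 had 6, 6, 7, 24, 5 and 8 reads, or 0.347, 0.397, 0.470, 1.43, 0.342 and 0.491 CPM. The 4 reads of control 3 have an exact 95% Poisson interval of 1.09 to 10.2 reads, which covers counting error only. Control 5 and mutant 4, both of litter D, were the highest of their groups, and control 3 was the lowest of all. The control mean was 0.901 ± 0.655 CPM (SD, n = 5) and the mutant mean 0.579 ± 0.420 CPM (SD, n = 6), with 0.635 ± 0.319 CPM (SD, n = 4) in controls without control 5.

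Hoxd1, the gene at the 3′ end, had 206 reads in all. Controls 1 to 5 had 8, 11, 3, 7 and 53 reads, or 0.447, 0.566, 0.164, 0.407 and 3.71 CPM. Mutants 1 to 6 had 9, 22, 25, 37, 11 and 20 reads, or 0.521, 1.46, 1.68, 2.20, 0.752 and 1.23 CPM. Control 5 held 6.56 times the level of the next control and lay above every mutant. The control mean was 1.06 ± 1.49 CPM (SD, n = 5) with control 5 and 0.396 ± 0.169 CPM (SD, n = 4) without it, beside 1.31 ± 0.615 CPM (SD, n = 6) in mutants. In 3 of the 4 litters the mutants lay higher, and in litter D, which holds control 5, they lay lower.

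**Figure D2:**
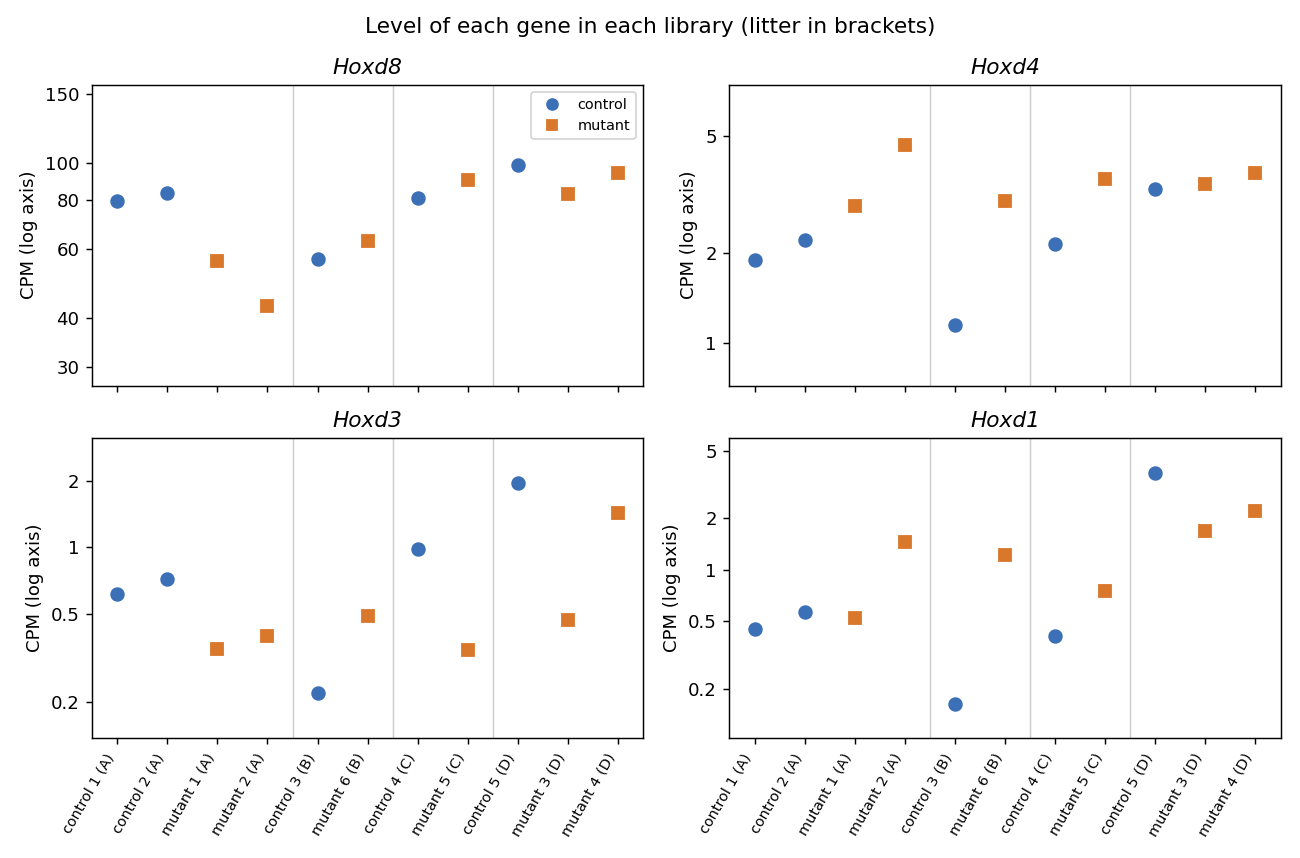
CPM of each gene in each library on log axes, libraries ordered by litter (letter in brackets), circles for controls and squares for mutants. Control 5 is the highest control in all 4 panels, control 3 is the lowest library for Hoxd4, Hoxd3 and Hoxd1, and the mutants of litter A are the lowest for Hoxd8.

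Per kilobase of exon that could collect reads, the order of the mean levels over the 11 libraries was Hoxd8 (27.5 ± 6.53 CPM per kb, SD), Hoxd4 (2.07 ± 0.700), Hoxd1 (0.641 ± 0.562) and Hoxd3 (0.466 ± 0.345). Hoxd8 was above Hoxd4, and Hoxd4 above Hoxd1, in 11 of 11 libraries, by 13.3 and 3.22 times in the means. Hoxd1 and Hoxd3 did not differ beyond their spread: Hoxd1 was the higher in 7 of 11 libraries. With all exon bases as the divisor, Hoxd4 was at 0.985 CPM per kb and Hoxd3 at 0.173, and Hoxd1 was then above Hoxd3 in 10 of 11 libraries. The means kept their order with either divisor, while the gaps changed: with all exon bases Hoxd8 was 27.9 times Hoxd4, and Hoxd4 was 1.54 times Hoxd1 and below it in 1 of 11 libraries.

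For none of the 4 genes did the mutants differ from the controls at an adjusted p under 0.05, in a test where 345 of 15821 genes (2.18%) did, 111 higher (0.702%) and 234 lower (1.48%). Hoxd4 came closest, at 0.73 higher on the log2 scale (SE 0.22, 95% interval 0.24 to 1.22, edgeR adjusted p = 0.0944). Its unadjusted p was under 0.05, as was that of 21.4% of all genes. The mutants lay higher within each litter, by 0.80, 1.30, 0.69 and 0.12 in litters A to D on the log2 scale. Of all genes, 26% had 1 direction in all 4 litters. An exact two-sided permutation of the genotypes within litters gave p = 0.0278 for Hoxd4, where 72 arrangements allow no value below 0.0139. Without control 5 the edgeR estimate was 0.95 and its adjusted p 0.0461, past the threshold, as 5.41% of genes were. Without the filter on low counts, which takes 29256 genes into the test, the adjusted p was 0.0451, where 5.35% of genes passed. Over all the alternatives tried for Hoxd4, the adjusted p ran from 0.0451 to 0.870. The highest came with a long T run covariate, described at the end, which left an estimate of 0.19.

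Hoxd3 was the member with the lowest estimate, at -0.73 on the log2 scale (SE 0.44, 95% interval -1.67 to 0.22, edgeR adjusted p = 0.364). The mutants lay lower in litters A, C and D, at -0.68, -1.26 and -1.12, and higher in litter B, at 0.85. The exact permutation within litters gave p = 0.181. Hoxd8 had an estimate of -0.25 (SE 0.13, 95% interval -0.54 to 0.04, edgeR adjusted p = 0.307, exact permutation p = 0.222). That value came from litter A, at -0.73: litters B, C and D gave 0.15, 0.15 and -0.16, and the estimate without litter A was 0.02. Hoxd1 had the widest interval, -0.51 to 1.55 around 0.52 (SE 0.47, edgeR adjusted p = 0.571, exact permutation p = 0.333). Its litters A to D gave 0.69, 2.25, 0.73 and -0.91. Without control 5 the Hoxd1 estimate was 1.32, with an edgeR adjusted p of 0.133, and the adjusted p ran from 0.133 to 0.900 over its alternatives. No member had groups that did not overlap, which 2.59% of all genes had. Over the 4 genes the median log2 fold change was 0.14, with 2 above 0, beside a median of 0.00 over all genes tested.

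**Figure D3:**
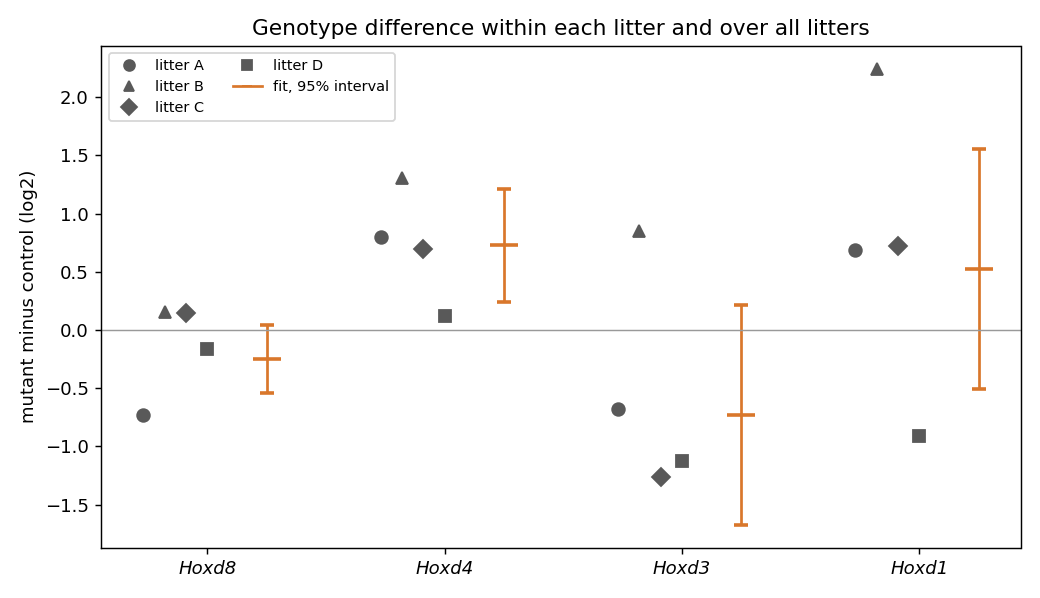
Mutant minus control on the log2 scale for each gene, by litter (grey symbols) and from the fit over all litters (orange dash with its 95% interval). Only Hoxd4 has all 4 litters above 0 and an interval that leaves out 0; Hoxd1 spans -0.91 to 2.25 over the litters.

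Differences between litters were also tested in the same edgeR model. None of the 4 genes differed between litters at an adjusted p under 0.05, as 14 of all genes (0.0885%) did. Their adjusted p was 0.244 for Hoxd8, 0.245 for Hoxd1, 0.356 for Hoxd3 and 0.579 for Hoxd4. Before adjustment, Hoxd8, Hoxd1 and Hoxd3 were under 0.05, as were 13.5% of all genes, and Hoxd4 was not. The genotype difference of no member differed between litters at an adjusted p under 0.05, and 0 genes (0%) passed that test, which has 3 residual degrees of freedom. The adjusted p was 0.950 for each of the 4. Before adjustment Hoxd8 alone of the 4 was under 0.05, as were 3.82% of all genes. When genes with low counts were left in, the litter difference of Hoxd1 had an adjusted p of 8.18e-05 and that of Hoxd8 of 3.93e-06, where 1583 of 29256 genes (5.41%) passed. The Hoxd8 genotype difference then differed between litters with an adjusted p of 0.0212, where 438 of 29256 genes (1.5%) passed.

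Ratios of 2 genes within a library cancel its scaling, except through the prior count of 2 in log2 CPM. That prior is scaled to library size and weighs on genes with few reads. The log2 ratio of Hoxd8 over Hoxd4 was lower in the mutants in all 4 litters, by -1.53, -1.15, -0.55 and -0.28 in litters A to D. Its change over all litters was -0.96, with an exact permutation p of 0.0139, the smallest that the design can give, and 0.0833 after adjustment over the 6 ratios. Hoxd4 over Hoxd3 was higher in the mutants in all 4 litters, with a change of 1.32 (exact permutation p = 0.0278, adjusted 0.0833). Hoxd3 over Hoxd1 changed by -1.20 (exact permutation p = 0.0417, adjusted 0.0833), and Hoxd4 over Hoxd1 by 0.12 (exact permutation p = 0.722). Hoxd8 over Hoxd1 changed by -0.85 and Hoxd8 over Hoxd3 by 0.35, with exact permutation p of 0.194 and 0.431. With a prior count of 0.5, Hoxd3 over Hoxd1 changed by -1.39 and Hoxd4 over Hoxd1 by 0.02. No ratio passed the threshold after adjustment with either prior count, and these ratios were chosen after the values were seen.

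The 6 pairs of the 4 genes differed widely in r over the 11 libraries, from 0.0414 to 0.799. Without mutant 2 the range was 0.406 to 0.813. Hoxd1 with Hoxd8 was then at 0.623 and Hoxd4 with Hoxd8 at 0.522 (adjusted permutation p = 0.0842 and 0.141). With so few libraries and low counts, a pair that missed the threshold cannot be read as unrelated. Hoxd1 and Hoxd4 had the closest relation over the 11 libraries (log2 CPM, Pearson r = 0.799, permutation p = 0.00269, adjusted over 6 pairs 0.0161; Spearman rho = 0.818, adjusted permutation p = 0.0204). Without control 5 and control 3, the libraries farthest from the Hoxd1 median, r was 0.801 with an adjusted permutation p of 0.0766. Within the 6 mutants it was 0.518, and after removal of litter and genotype means it was 0.984. That last value rests on 6 residual degrees of freedom. Litters hold 2 to 4 libraries, too few for a correlation within each. Without control 3 alone the Hoxd1 and Hoxd4 relation was 0.695, with an adjusted permutation p of 0.152.

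Hoxd3 and Hoxd8 had r = 0.669 (adjusted permutation p = 0.0722; rho = 0.618, adjusted 0.145), 0.499 without control 5 and mutant 4, and 0.246 after litter and genotype. Hoxd1 and Hoxd3 had r = 0.619 (adjusted permutation p = 0.0856; rho = 0.436, adjusted 0.273), and 0.130 without control 5 and control 3. In the mutants alone, which hold neither library, Hoxd1 and Hoxd3 had r = 0.732, and after litter and genotype 0.668. Hoxd1 with Hoxd8 had r = 0.324 (rho = 0.509), Hoxd3 with Hoxd4 0.262 (rho = 0.0727) and Hoxd4 with Hoxd8 0.0414 (rho = 0.236), with adjusted permutation p between 0.228 and 0.902. Leaving out 1 library took the Hoxd3 and Hoxd8 relation past the threshold (r = 0.797, adjusted permutation p = 0.0167, without mutant 5). It did the same for Hoxd1 and Hoxd3 (r = 0.744, adjusted permutation p = 0.0363, without control 4). After litter and genotype, Hoxd3 with Hoxd4 had r = 0.619, Hoxd1 with Hoxd8 0.015 and Hoxd4 with Hoxd8 -0.121.

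Each gene was set against 8 other transcripts of the region, 32 pairs in all. Of these, 21 had an r that passed at an adjusted permutation p under 0.05, and the pairs share the same 11 libraries. The share of pairs with genes elsewhere that would pass was not counted. Of all genes, 3.89% had a higher r with Hoxd1 than Hoxd4 had, and 4.99% a higher r with Hoxd4 than Hoxd1 had. The permutations moved values over all libraries, so that shifts shared by a litter or genotype enter these r. Among the 8, Hoxd4 was closest to Mtx2, the mitochondrial import gene beyond Hoxd1 (r = 0.94, rho = 0.91, adjusted permutation p = 0.00112 and 0.00358), and r was 0.87 without its 2 farthest libraries and 0.90 after litter and genotype. Hoxd1 was close to Mtx2 as well (r = 0.88, rho = 0.90, adjusted permutation p = 0.00224 and 0.00358, r = 0.87 without 2 libraries and 0.94 after litter and genotype). Such values are not particular to the region. Of all genes, 4.93% had r over 0.8 with Hoxd4 and 3.82% with Hoxd1. Timm10b, Srm and Llph, on other chromosomes, had higher r with Hoxd4 than Mtx2 had, at 0.969, 0.959 and 0.953. Hoxd8 and Hoxd3 had r = 0.12 and 0.35 with Mtx2, which did not pass. Hoxd3 with Mtx2 was 0.74 after litter and genotype and -0.10 without control 5 and mutant 4, and Hoxd8 with Mtx2 was 0.22 after litter and genotype and 0.62 without mutants 1 and 2. Mtx2 itself was 0.36 higher in mutants on the log2 scale (SE 0.10, edgeR adjusted p = 0.0787). Without control 5 it was 0.49 higher (edgeR adjusted p = 0.026), where 5.41% of genes passed. That was the 1 of 11 runs with a library left out in which Mtx2 passed, and the adjusted p ran up to 0.270. With the long T run covariate described at the end, its estimate was 0.16.

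Against Hoxd11, Hoxd12 and Hoxd13, but not Hoxd9 and Hoxd10, r over the 11 libraries was negative for all 4 genes. Hoxd3 and Hoxd13, the gene at the 5′ end that patterns the digits, had r = -0.93 (rho = -0.88, adjusted permutation p = 0.00112 and 0.00358). The value was -0.81 without control 5 and mutant 4, -0.90 without control 5 alone and -0.83 after litter and genotype. Hoxd8 had r = -0.70, -0.69 and -0.69 with Hoxd13, Hoxd12 and Hoxd11 (adjusted permutation p = 0.0375, 0.0391 and 0.0375), and -0.84, -0.78 and -0.77 without mutants 1 and 2. After litter and genotype these Hoxd8 values were -0.23, -0.35 and -0.28. Hoxd1 had r = -0.67 with Hoxd13 (adjusted permutation p = 0.0375, rho = -0.43), -0.20 without controls 5 and 3, and -0.82 after litter and genotype. Hoxd4 with Hoxd13 had r = -0.33 (adjusted permutation p = 0.340), and -0.76 after litter and genotype.

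By Pearson r, Hoxd9 passed with all 4 genes and Hoxd10 with Hoxd8 alone. Hoxd8 had r = 0.78 with Hoxd10 and 0.70 with Hoxd9 (adjusted permutation p = 0.0154 and 0.0375; rho = 0.87 and 0.78), and 0.78 and 0.92 without mutants 1 and 2. Hoxd1 had r = 0.81 with Hoxd9 (adjusted permutation p = 0.0112, rho = 0.79), and 0.58 without controls 5 and 3. Hoxd1 with Hoxd10 had r = 0.56, which did not pass (adjusted permutation p = 0.0998), and -0.31 after litter and genotype. Hoxd3 and Hoxd4 had r = 0.60 and 0.41 with Hoxd10 (adjusted permutation p = 0.0817 and 0.260), and 0.06 and -0.31 after litter and genotype. With Hoxd9 both had r = 0.68 (adjusted permutation p = 0.0375), or 0.31 and 0.34 without their 2 farthest libraries. Their rho with Hoxd9 was 0.52 and 0.66, which did not pass (adjusted permutation p = 0.154 and 0.0649).

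**Figure D4:**
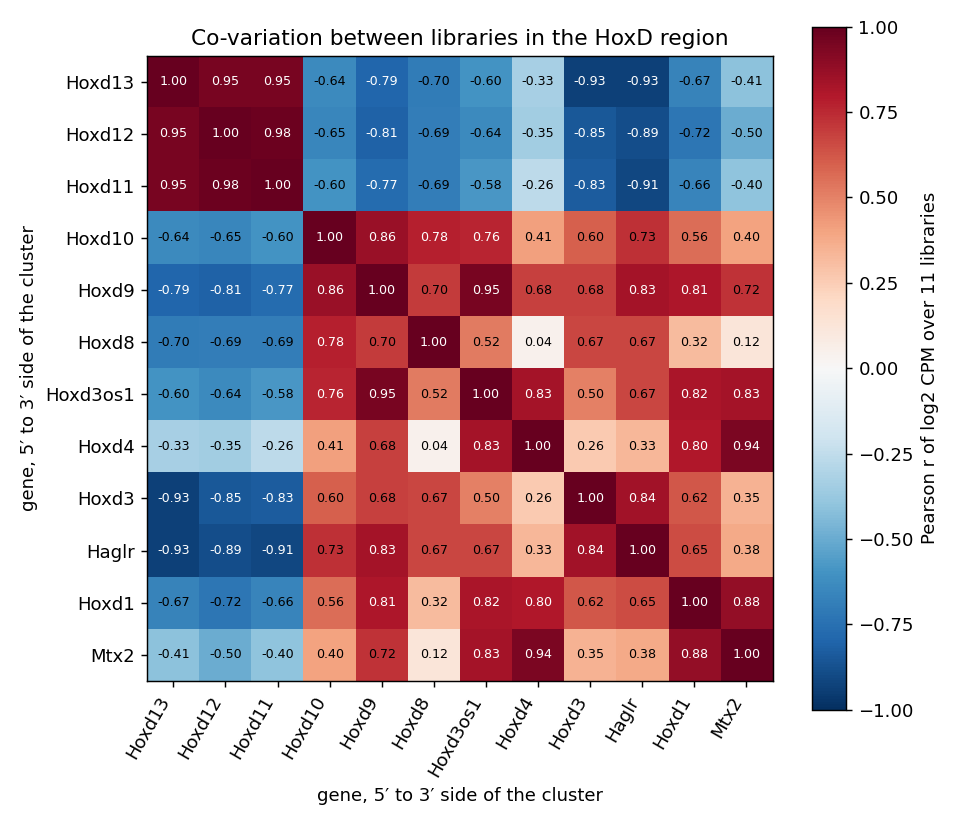
Pearson r of log2 CPM over the 11 libraries between genes of the HoxD region, ordered from the 5′ side (Hoxd13) to the 3′ side and Mtx2; red is positive, blue negative. Hoxd13, Hoxd12 and Hoxd11 form a block that is negative with all 4 genes described here, from -0.26 for Hoxd4 with Hoxd11 to -0.93 for Hoxd3 with Hoxd13.

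Between and across the 4 genes lie several other transcripts, noncoding in GENCODE M21 except for Gm28230. Hoxd3os1, antisense to the shared first exon of Hoxd3 and Hoxd4, had 3778 reads and 18.2 ± 6.31 CPM (SD, n = 5) in controls against 23.5 ± 4.84 (SD, n = 6) in mutants. Its log2 fold change was 0.32 (SE 0.11, edgeR adjusted p = 0.120), and its level went with Hoxd4 at r = 0.83 and with Hoxd1 at r = 0.82 (adjusted permutation p = 0.0101 for each), or 0.54 and 0.67 without the 2 farthest libraries. Haglr, antisense between Hoxd3 and Hoxd1, had 6.72 ± 4.41 CPM (SD, n = 5) in controls against 5.10 ± 2.14 (SD, n = 6) in mutants. Its log2 fold change was -0.49 (SE 0.15, edgeR adjusted p = 0.102), or -0.31 without control 5, and it went with Hoxd3 at r = 0.84 (adjusted permutation p = 0.00776), or 0.54 without control 5 and mutant 4. Haglr passed with Hoxd1 and Hoxd8 as well, at r = 0.65 and 0.67 (adjusted permutation p = 0.0428 and 0.0398), or 0.22 and 0.85 without the 2 farthest libraries. After litter and genotype these values were 0.76 for Hoxd1 and -0.18 for Hoxd8. By rank, Hoxd8 passed (rho = 0.76, adjusted permutation p = 0.0251) and Hoxd1 did not (rho = 0.51, adjusted permutation p = 0.154). Neither antisense transcript differed between genotypes past the threshold. The counts do not use strand, so that reads of an antisense transcript over the introns of a Hox gene are assigned by exon alone. Gm14424 had 81 reads (log2 fold change 1.23, edgeR adjusted p = 0.240). Gm14426 with 29 reads, Gm28230 with 36 and the microRNA gene Mir10b with 1 were below the filter.

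Among 12096 named genes with a mean of at least 1 CPM, those most like each member over the 11 libraries were listed by Pearson r. For Hoxd1 they were Ecsit (0.969), Prdx4 (0.966) and Selt (0.955), and for Hoxd4 they were Timm10b (0.969), Srm (0.959) and Llph (0.953). For Hoxd8 they were Disp1 (0.972), Efnb2 (0.959) and Cers2 (0.935), and for Hoxd3 Adamts1 (0.936), Reep1 (0.931) and Ppp1r7 (0.904). Such maxima over all these genes are a description. The share of all genes with r over 0.8 was 4.93% for Hoxd4 and 3.82% for Hoxd1, but 0.891% for Hoxd8 and 0.468% for Hoxd3.

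Other genes of the pathway were read from fixed lists in the same test. The 5 HoxD genes on the 5′ side had 0 that passed. Their log2 fold changes were 0.15 for Hoxd9, 0.02 for Hoxd10, 0.62 for Hoxd11, 0.76 for Hoxd12 and 0.70 for Hoxd13, a median of 0.62. Hoxd12 was at 1.23, -0.13, -1.01 and 3.28 in litters A to D, and litter D, which holds control 5, was also the highest for Hoxd11 and Hoxd13, at 1.92 and 1.81. Without control 5 the estimates were 0.25 for Hoxd9, -0.04 for Hoxd10, 0.31 for Hoxd11, 0.33 for Hoxd12 and 0.41 for Hoxd13, the median was 0.31 and 0 of the 5 passed. Of the 9 paralogues in HoxA, HoxB and HoxC, which share the ancestral gene of each member, 0 passed, with a median of 0.00. Hoxc4, the paralogue of Hoxd4, was at -0.50 (SE 0.16, edgeR adjusted p = 0.114) and Hoxa4 and Hoxb4 at 0.00 each. Hoxb1, a paralogue of Hoxd1, was at -0.40 (edgeR adjusted p = 0.553). Hoxa3 and Hoxb3 were at 0.11 each, and Hoxb8 and Hoxc8 at -0.49 and 0.08. None of the 9 had an estimate as high as that of Hoxd4.

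Of the genes beside the cluster, 5 were tested and 0 passed, with a median of 0.13. Besides Mtx2, Atp5g3 was at 0.24, Hnrnpa3 at 0.13, Nfe2l2 at 0.09 and Lnp, on the 5′ side, at -0.52 (SE 0.13, edgeR adjusted p = 0.0534). Evx2 had 24 reads and was not tested. Of 9 Hox cofactors 1 fell, Meis1, from 187 ± 22.8 CPM (SD, n = 5) to 122 ± 18.8 (SD, n = 6), or -0.63 on the log2 scale (SE 0.10, edgeR adjusted p = 0.0291). Meis1 encodes a homeodomain protein that binds DNA together with Hox proteins and marks the proximal limb. Meis2 was at -0.07 and Pknox2 at -0.79 (adjusted p = 0.0671), and the list's median was -0.09. Of 15 tested retinoic acid genes 2 fell and 0 rose, where 1.48% of all genes fell. Stra6, the membrane receptor that takes up retinol, stood at -0.58 on the log2 scale (SE 0.10, edgeR adjusted p = 0.0336), and Dhrs3, which turns retinal back into retinol, at -0.58 (SE 0.13, edgeR adjusted p = 0.0468). The median of that list was 0.00. These calls depended on single libraries: with each of the 11 left out in turn, Meis1 passed in 2 runs, Stra6 in 3 and Dhrs3 in 1, with adjusted p up to 0.140, 0.165 and 0.204. They also depended on the model, though other scalings, filters and tools kept them. Without the litter block the edgeR adjusted p was 0.0549, 0.0549 and 0.0625. With the long T run covariate described below, the estimates were -0.34, -0.46 and -0.15 (edgeR adjusted p = 0.371, 0.357 and 0.752).

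In 9 lists of markers of other cell types 0 genes passed the threshold, and among the limb bud mesenchyme markers 1 of 8 did (Lhx9, at -0.50 on the log2 scale, edgeR adjusted p = 0.0406, past the threshold in 2 of 11 runs with a library left out). Lhx9 did not pass without the litter block (edgeR adjusted p = 0.0574). With the long T run covariate given below it was at -0.32 (edgeR adjusted p = 0.448). Of the neural tube markers, listed because Hox genes are also expressed there, only Tubb3, a general neuron gene, passed the filter. Over all libraries Sox2 had 42 reads, Elavl3 35, Pax6 22, Neurog2 5, Sox1 1 and Olig2 0. Pax6 had reads in every library. None of the 4 tested somite and sclerotome markers passed. The 6 listed summed to 22.7 to 57.8 CPM in controls, highest in control 5, and 23.6 to 27.8 CPM in mutants. Of the sum in control 5, 51.9 CPM was Meox1 alone. The 5 muscle precursor markers, with 0 past the threshold, summed to 41.7 to 78.9 CPM in controls and 37.5 to 73.1 CPM in mutants. Most of that sum is Pax3, and the estimates of the others differed in sign: Myf5 was at -1.25, Myog at -1.76, Myod1 at -2.10 and Lbx1 at 0.82 on the log2 scale. All 4 tested neural crest and sensory ganglion markers had estimates below 0, with a median of -0.59, and summed to 19.2 to 35.1 CPM in controls and 8.44 to 22.1 CPM in mutants. All 8 red blood cell markers had estimates above 0, with a median of 0.66, and summed to 10296 to 25330 CPM in controls and 12337 to 43774 CPM in mutants. The part of these differences between libraries in the results was not tested. Another property moved with genotype: the mean log2 CPM of the 959 genes with a run of at least 18 T in their exons was 4.72 to 4.82 in controls 1 to 4, 4.45 in control 5 and 4.26 to 4.63 in the mutants. Hoxd1, Hoxd8, Hoxd4 and Hoxd3 have longest runs of 17, 17, 14 and 7. With that mean as a covariate, added after seeing the data, the log2 fold changes were 0.19 for Hoxd4, -1.08 for Hoxd3, 0.14 for Hoxd8 and -0.69 for Hoxd1. No member passed there, and the part of this property in the results was not tested otherwise.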

How the data were processed

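The authors aligned reads to mm10 with STAR 2.5.4b, per the submitters' processing notes, and deposited raw read counts per gene name from featureCounts 1.4.6-p4 with GENCODE M9, per the file headers. The recorded command asked for mapping quality 10 or more, set no strand option and named 12 alignment files, of which the table holds 11. Total counts were 14721181 to 19733288.

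Counts were tested with edgeR 4.0.16 in R 4.3.3 (filterByExpr, TMM factors, quasi-likelihood F test, two-sided) on litter and genotype, with Benjamini-Hochberg adjustment over 15821 genes, which held 99.9% of counts, and a threshold of 0.05. On simulated data without litter effects the fit was checked for recovery of known changes. These were larger than the estimates of the members and lay in genes with more reads than Hoxd1, Hoxd3 and Hoxd4. Recovery at the levels of Hoxd1, Hoxd3 and Hoxd4 was not checked. CPM are on TMM-scaled totals, and log2 CPM uses a prior count of 2. Per-kilobase levels divide by exon bases that no other row covers. Exact permutations moved genotypes within litters. Correlations had 100000 resamples. Promoter windows came from RefSeq. Alternatives were other scalings, filters and tools (DESeq2 1.42.0, limma 3.58.1), no litter block, and each library or litter left out.

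Litters were read from the titles, and the design text speaks of litter-matched pairs. As a check, deviations from group means correlated at -0.163 to 0.369 (median 0.130) over 8 same-litter pairs of a control and a mutant and -0.333 to 0.171 (median -0.0199) over 22 other pairs. Libraries within a group differed by more than sampling noise (chi-square at least 7.39 times its degrees of freedom in 25 pairs). The members and lists were chosen with earlier results of these data known. Genes named were the 4 members, list genes past the threshold or in short Hox lists, every other transcript between Hoxd8 and Hoxd1, and the 3 genes closest to each member.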

Additional observations from a re-analysis of the deposited data

Results flagged for a closer look

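Hoxd3 in mutant 4 stood apart from the other mutants: its log2 CPM was 0.63, the next mutant was at -0.71, and the gap was 0.769 of the group's range, where 0.625 is the critical value for 6 samples. It rests on 24 reads. The highest and lowest library of 8 groups were examined, 16 comparisons in all, and 1 was past the critical value; chance gives about 1 in 20 groups.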

How the results depend on the processing

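Hoxd1 and Hoxd3 rest on 3 to 53 reads a library; their coefficients of variation in controls were 141% and 72.7%, where counting alone gives 24.7% and 26.0%. Genes called numbered 345, and 1566 with no filter on low counts, 550 with a minimum of 1 CPM in 5 libraries (which drops Hoxd3), 1194 with DESeq2, 13 with no replicate block for litter, 2 with the T run covariate, 9, 3, 1 and 148 without litters A, B, C and D, and 1 to 850 with single libraries left out, within 1.5 times the original only without mutant 2. Upper-quartile scaling gave 155 higher of 360, against 111 of 345. With no filter, 1583 genes differed between litters and 438 by genotype and litter. Hoxd4 passed with no filter (0.72) and ranged from 0.60 to 0.95 with libraries left out, past the threshold only without control 5. With the T run covariate it was 0.19. Without the block its adjusted p was 0.113, and the block changed no member's call. Hoxd8 reversed without litter A (0.024) and with the T run covariate (0.14), as did Hoxd1 with that covariate (-0.69). DESeq2 gave no adjusted p for Hoxd1 and Hoxd3. The correlation of Hoxd1 and Hoxd4 lost its call without its 2 farthest libraries (0.801) and in the mutants alone (0.518), and ranged from 0.695 to 0.879 with libraries left out. Hoxd4 with Hoxd8 turned to -0.121 for residuals, -0.312 without 2 libraries and -0.222 in mutants, and ranged from -0.302 to 0.522. Hoxd1 with Hoxd8 was -0.0676 without 2 libraries. With libraries left out, Hoxd1 with Hoxd3 ranged from 0.40 to 0.744, Hoxd3 with Hoxd4 from -0.119 to 0.406, Hoxd3 with Hoxd8 from 0.599 to 0.797, and the Hoxd4 over Hoxd1 ratio change from -0.19 to 0.36. The cause of these shifts was not tested.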
